A study of Mus musculus with 6 samples.

Results

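Cytosolic ribosomal protein genes encode the proteins of the ribosome that translates nuclear-encoded messages. A small subunit (Rps genes) reads the messenger RNA, and a large subunit (Rpl genes) joins the amino acids, with an acidic stalk (Rplp genes) that recruits elongation factors. Their transcripts are among the most abundant in growing tissue and often carry a 5′ terminal oligopyrimidine tract (TOP), a run of C and T bases that starts with C, through which Mtor and Larp1 control their translation. They were followed here in fetal mouse lungs. Genes were taken by symbol, as Rpl or Rps followed by digits (with an optional a, x, l or p and digits after) or as Rpsa, Rplp0, Rplp1 or Rplp2, without S6 kinases and pseudogenes, from probe sets annotated to 1 gene. Where a gene had several, the brightest on average stood for it. This gave 49 of 18193 genes measured in the same way, 26 of the large and 23 of the small subunit, from 105 probe sets. A further 110 probe sets named a ribosomal protein gene together with another gene, usually a pseudogene, and 29 ribosomal protein genes were found only there and are not named from them.

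The samples are microdissected fetal mouse lungs at E16.5 (the age in embryonic days), 3 Hopx-null (Hopx -/-) and 3 wild-type (Hopx +/+), all on a mixed strain background, with 1 Affymetrix array per sample. Hopx encodes a small homeodomain protein that does not bind DNA and is known in lung from flat alveolar epithelial cells. The comparison asks how loss of Hopx changes the fetal lung transcriptome. The design of the targeted allele, the sex of the embryos and any pooling of them are not given in the labels. Y-linked signal, described below, was found only in wild-type lungs, so sex was not balanced between the genotypes. All values below are log2 expression values, and differences are Hopx-null minus wild-type. Whole lungs were measured, so fewer cells of a type and less RNA per cell cannot be told apart, and the normalization between arrays hides any change in total RNA.

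The s_at probe set of Hopx, the targeted gene, averaged 4.71 ± 0.21 in Hopx-null and 10.65 ± 0.28 in wild-type lungs (SD, n = 3 each). The difference was -5.94 (limma eBayes with Benjamini-Hochberg, adjusted p = 0.000375). Its a_at probe set still averaged 10.49 in Hopx-null lungs, against 12.40 in wild-type lungs, a difference of -1.91 (limma eBayes, adjusted p = 0.0228). Correlations between arrays were 0.991 to 0.995 within a genotype and 0.989 to 0.995 between genotypes. The surfactant gene Sftpc, a lung epithelial marker, read 13.82, 13.76 and 13.72 in Hopx-null and 13.73, 13.80 and 13.75 in wild-type lungs, above the upper quartile of every array (9.02 to 9.05). Of the 6 epithelial markers it differed least. Nkx2-1 was lower (-0.23) and Sftpb higher (0.11) without overlap, Foxa2 differed by -0.28, and none of the 6 passed the test (limma eBayes, adjusted p of at least 0.878). Hopx-null replicate 3 stood apart in RNA quality controls. Its log2 difference between 3′ and 5′ actin probe sets was 1.51, against 1.15 to 1.25 in the other 5 lungs, and its 18S ribosomal RNA 5′ probe set read 7.18, against 5.58 to 5.94.

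Pyrimidine runs around the transcription start, which did not enter the choice of members, were present in some of them. The RefSeq promoter table (GRCm38.p6, 250 bases before to 50 after each start) held 43 of the 49 genes. The windows below cover 15 bases on each side of the annotated start, 5′ to 3′ on the gene's strand, and 7 of the 8 were picked to show a run of C and T. In the first 5 the annotated first base is a C, and capitals mark the pyrimidines from it onward, although C or T bases also stand directly before it. The last is a member without such a run whose groups also did not overlap.
Rps10 (chr17:27635230-27635259, minus strand): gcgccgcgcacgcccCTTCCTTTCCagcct
Rps27 (chr3:90213634-90213663, minus strand): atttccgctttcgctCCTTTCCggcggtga
Rps6 (chr4:86857353-86857382, minus strand): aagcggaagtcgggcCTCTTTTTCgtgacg
Rps18 (chr17:33955651-33955680, minus strand): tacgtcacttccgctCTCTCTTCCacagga
Rpl38 (chr11:114668565-114668594, plus strand): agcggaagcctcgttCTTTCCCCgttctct
Rpl7a (chr2:26910792-26910821, plus strand): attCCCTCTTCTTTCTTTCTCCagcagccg
Rps9 (chr7:3704026-3704055, plus strand): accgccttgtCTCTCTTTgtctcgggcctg
Rps28 (chr17:33824548-33824577, minus strand): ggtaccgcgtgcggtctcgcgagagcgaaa
In Rpl7a and Rps9 the annotated first base is not a C, and capitals mark the run around it from its first C. The first 2 sequences belong to the genes with the largest differences among those whose groups did not overlap, and Rps9 is described below for the disagreement of its probe sets.

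A C at the start followed by at least 4 pyrimidines, read on the gene's strand only, was found in 8 of 43 members (18.6%) and in 3.01% of the 27025 genes of the table. A C followed by at least 7 pyrimidines within 25 bases of the start was found in 23 of 43 members (53.5%), against 17.7% of all genes. Letters of the type bound by ETS factors, CCGGAAG on either strand anywhere in the 300 bases, were present in 21 members (48.8%) and 9.93% of all genes. The YY1-like letters AAGATGGC on either strand were present in 4 members (9.30%) and 3.19% of all genes, the E-box CACGTG in 4 members (9.30%) and 8.09%, and TATAAA on the gene's strand 40 to 20 bases before the start in 1 member (2.33%) and 2.41%. These are letter matches and not shown binding sites, and several members have more than 1 annotated start, any of which counted. The starts used in these lungs were not measured, so a member without a match is not shown to lack a TOP tract. The median difference between genotypes was -0.02 in the 23 members with a pyrimidine run near the start and -0.04 in the 20 without, with 17 lower in each set. It was -0.01 in the 21 members with the ETS-like letters, 14 of them lower, and -0.04 in the 22 without, 20 of them lower. These differences between sets were not tested.

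**Figure D1:**
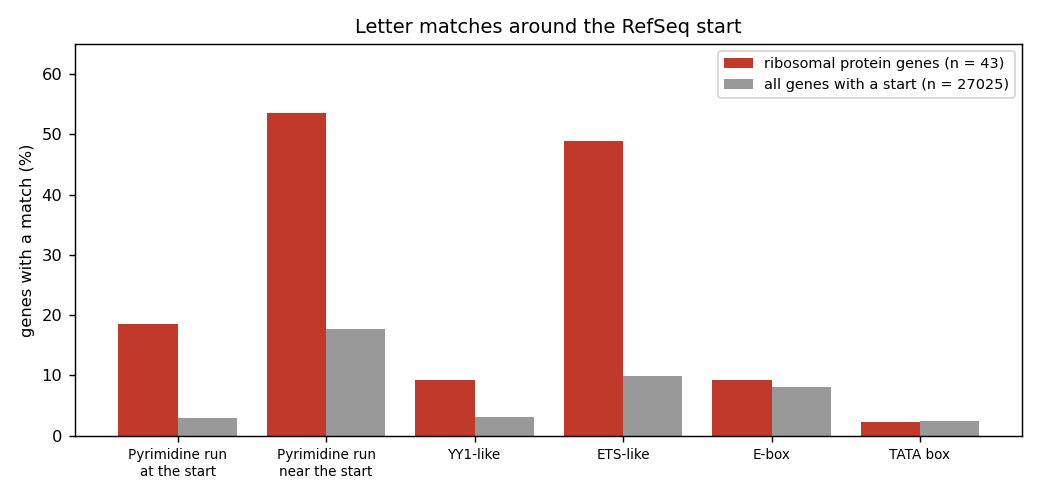
Share of genes (%) with each letter match in the promoter window, for ribosomal protein genes (red, n = 43) and all genes of the table (grey, n = 27025). The pyrimidine run and ETS-like bars are taller for ribosomal protein genes, while the E-box and TATA bars differ little.

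None of the 49 genes passed the test between genotypes (limma eBayes, Benjamini-Hochberg over all 45037 probe sets, smallest adjusted p = 0.879, the largest 0.998), where 0.00444% of probe sets and 0.0055% of genes passed. At an unadjusted p under 0.05 there were 0 members in either direction, against 2.9% of all genes higher and 1.64% lower. The differences ran from -0.14 to 0.09, 45 of 49 were smaller than 0.1 in size, and the 95% interval lay within ±0.5 in 46 (68.9% of all genes). The exceptions were Rps25, Rps4l and Rpl39l. Most members were bright, with 37 of 49 means above 12 (4.69% of all genes). In these 37 the median SD within a genotype was 0.0392, against 0.0737 in the 817 other genes above 12, and the range over the 6 lungs was under 0.2 in 94.6%, against 51.2%. Over all 49 the median SD was 0.0449, and in the 9 members not above the upper quartile it was 0.196, against 0.146 over all genes. The brightest probe set of an array read 14.33 to 14.65. Array signal rises less than in proportion to RNA close to its ceiling, so differences and spread of these genes can be understated, and how far was not tested.

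Within this narrow range most members lay on the lower side in Hopx-null lungs. Of the 49 genes, 39 had a difference below 0 and 10 above 0, with a median of -0.03, against 47.8% of all genes below 0, 52.2% above 0 and a median of 0.01. Among genes above 12, 83.8% of members and 53.4% of other genes lay below 0. The large subunit had 22 of 26 genes lower (median -0.03) and the small subunit 17 of 23 (median -0.04). Repeated quantile normalization gave 31 lower and 18 higher, with 48.2% of all genes lower. Centring each array on its median, which shifts all genes alike, gave 43 lower and 6 higher, with 52.8% of all genes lower. In the 110 probe sets with several genes, which overlap in RNA with those of the members and are no independent sample, 88 were lower and 22 higher, with a median of -0.03.

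**Figure D2:**
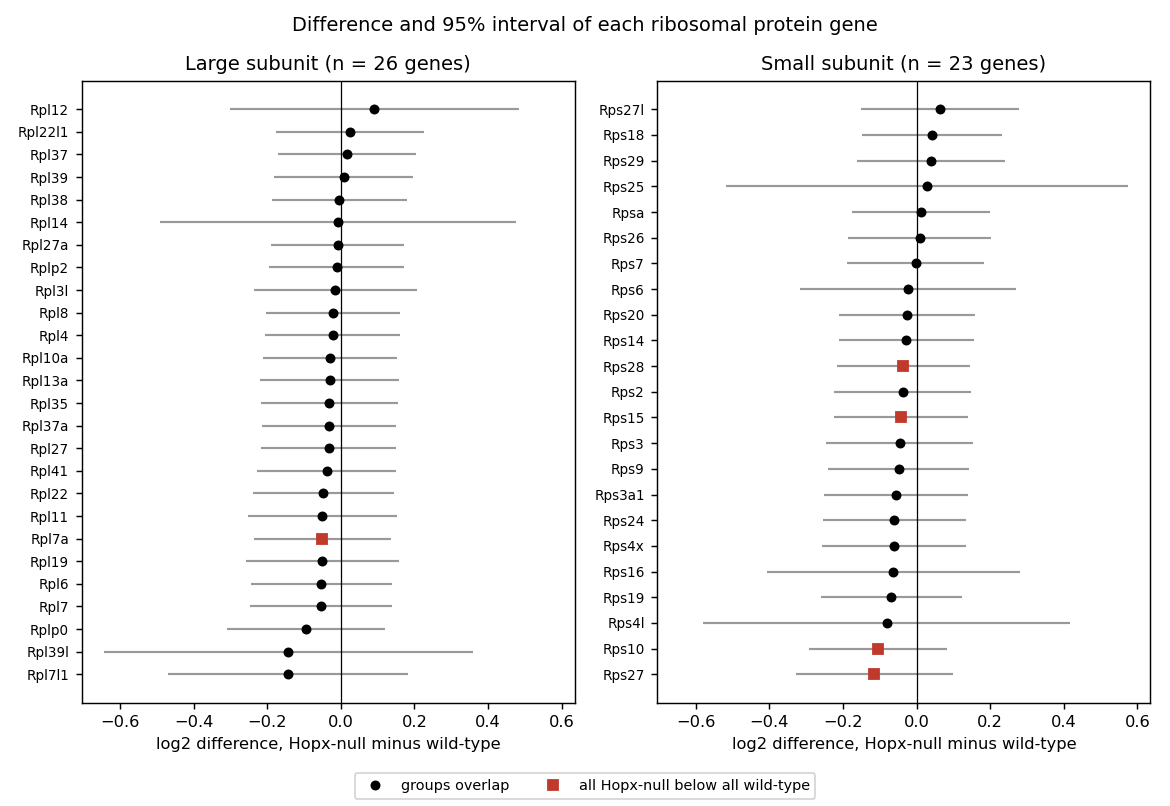
Log2 difference, Hopx-null minus wild-type, with its 95% interval for each ribosomal protein gene of the large (left, n = 26) and small subunit (right, n = 23). All intervals span 0, and red squares mark the 5 genes whose 3 Hopx-null values lay below all 3 wild-type values.

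Among the lungs, Hopx-null replicate 3 lay lowest. The median deviation of the members from their own 6-lung means was 0.01, -0.01 and -0.04 in Hopx-null replicates 1, 2 and 3, and 0.02, 0.00365 and 0.03 in wild-type replicates 1, 2 and 3. The groups overlapped, since Hopx-null replicate 1 lay above wild-type replicate 2. Hopx-null replicate 3, the lung with the largest 3′ bias, was the lowest of the 6 lungs in 27 of 49 members (55.1%), against 19.1% of all genes. Its 18S 5′ value and its actin difference, given above, were the highest of the 6 lungs. Wild-type replicate 3 was the highest in 19 members (38.8%), against 21.3% of all genes. Without Hopx-null replicate 3 the median difference of the members was -0.0154 with 38 of 49 lower, and Rps26, Rpsa and Rps29 were then among the lower ones, and without wild-type replicate 3 it was -0.03 with 34 lower. The part of RNA quality in these values was not tested.

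**Figure D3:**
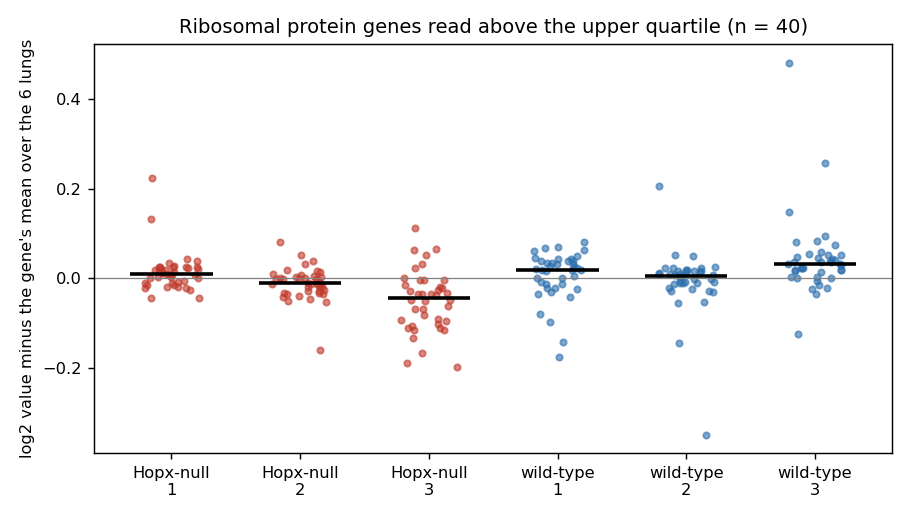
Deviation of each ribosomal protein gene from its own mean over the 6 lungs, for the 40 genes brighter than the upper quartile; each point is a gene and the black bar is the median. The points of Hopx-null replicate 3 centre lowest, and the other 5 medians lie between -0.01 and 0.03.

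The groups did not overlap in 5 members, all lower in Hopx-null lungs (10.2% of members, against 4.31% of all genes), and in 0 members on the higher side (6.21% of all genes, and 10.5% in either direction). Rps10, a small subunit protein near the messenger entry whose human gene is mutated in Diamond-Blackfan anaemia, an inherited failure of red cell production, read 13.10, 13.09 and 13.02 in Hopx-null and 13.18, 13.14 and 13.20 in wild-type lungs. Its difference was -0.10 (SE 0.08, limma eBayes, adjusted p = 0.879). The 4 further bright probe sets of the gene gave -0.08 to -0.11, and its dim probe set 0.04. Rps27, a zinc-finger protein of the small subunit, read 8.41, 8.48 and 8.47 in Hopx-null and 8.69, 8.50 and 8.52 in wild-type lungs, a difference of -0.12 (SE 0.09, limma eBayes, adjusted p = 0.879). The wild-type values of Rps27 came close to the Hopx-null ones except in replicate 1, and without that lung the difference was -0.06.

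The other 3 were smaller still. Rpl7a, a large subunit surface protein, read 13.60, 13.59 and 13.51 in Hopx-null and 13.61, 13.61 and 13.63 in wild-type lungs. Rps15, of the head of the small subunit, read 13.01, 12.99 and 12.96 in Hopx-null and 13.05, 13.02 and 13.03 in wild-type lungs. Rps28 read 13.71, 13.67 and 13.70 in Hopx-null and 13.75, 13.73 and 13.72 in wild-type lungs. Their differences were -0.05, -0.04 and -0.04 (limma eBayes with Benjamini-Hochberg, adjusted p from 0.929 to 0.95). These mean differences were a few hundredths of a log2 unit, and the gaps between the groups were smaller still. In Rps28 the highest Hopx-null value was 13.714 and the lowest wild-type value 13.718. The other probe set of Rps15 differed by 0.0047, with overlap. The further probe sets of Rps28 differed by -0.0035 with overlap (a_at) and by -0.10 without overlap (x_at).

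No member stood clearly on the higher side. Rpl12, part of the base of the stalk, had the largest positive difference at 0.09 (SE 0.16), with 7.69, 8.34 and 8.06 in Hopx-null and 7.98, 7.86 and 7.98 in wild-type lungs. Its Hopx-null values enclosed the wild-type ones. Rps18, of the head of the small subunit, read 13.39, 13.48 and 13.51 in Hopx-null and 13.44, 13.41 and 13.40 in wild-type lungs. Rps29, a small zinc-finger protein, read 13.65, 13.63 and 13.78 in Hopx-null and 13.68, 13.61 and 13.64 in wild-type lungs. Both differed by 0.04, and in Rps29 only Hopx-null replicate 3 exceeded the wild-type values, the lung that was lowest for most members.

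Stalk and surface proteins were on the same narrow scale. Rplp0, the anchor of the stalk and a common reference gene in expression work, read 12.22, 12.21 and 12.04 in Hopx-null and 12.24, 12.21 and 12.30 in wild-type lungs, a difference of -0.10 (SE 0.09). Hopx-null replicate 3 alone lay apart, and without it the difference was -0.04. Rplp2, an acidic stalk protein, read 13.75, 13.75 and 13.73 in Hopx-null and 13.79, 13.74 and 13.73 in wild-type lungs. Rpsa, also known as the laminin receptor, read 13.21, 13.20 and 13.27 in Hopx-null and 13.20, 13.19 and 13.25 in wild-type lungs. The differences of Rplp2 and Rpsa were -0.01 and 0.01.

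Of 10 members listed here for mutant or disease roles, not a full list, Rps10 above was the one without overlap between the groups. Rps27 and Rps28, also without overlap, were not in that list. Rps19, whose human gene is the one most often mutated in Diamond-Blackfan anaemia, read 12.92, 12.87 and 12.80 in Hopx-null and 12.97, 12.91 and 12.92 in wild-type lungs, a difference of -0.07 (95% interval -0.26 to 0.12). Of the other genes listed for that disease, Rps24 differed by -0.06, Rpl11 by -0.05, Rps26 by 0.01 and Rps7 by -0.0026. Rpl11 is also known to bind and inhibit Mdm2 when ribosome assembly fails. Rps14, lost in the human 5q- syndrome, differed by -0.03. Rpl38, mutated in the Tail-short mouse and needed there for translation of Hox messages, read 13.71, 13.67 and 13.66 in Hopx-null and 13.66, 13.71 and 13.68 in wild-type lungs, a difference of -0.0038 (95% interval -0.19 to 0.18). Rps20, mutated in a dark-skin mouse, differed by -0.03. Rps6, the substrate of S6 kinases, read 10.79, 10.77 and 10.84 in Hopx-null and 10.73, 10.67 and 11.07 in wild-type lungs, so its groups overlapped and wild-type replicate 3 was the highest.

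Of the X-linked members, Rps4x, a small subunit protein, read 12.80, 12.80 and 12.68 in Hopx-null and 12.84, 12.80 and 12.84 in wild-type lungs, a difference of -0.06 (SE 0.08). Wild-type replicates 2 and 3 carried Y-linked signal (Eif2s3y at 11.72 and 11.56) and the other 4 lungs did not (2.88 to 3.13). No Hopx-null lung thus carried it, so sex was not balanced between the genotypes for any gene compared here. The part of sex in the differences was not tested. Among the wild-type lungs, Rps4x read 12.84 in replicate 1, without Y-linked signal, and 12.80 and 12.84 in replicates 2 and 3, with it. Rpl39, a small protein of the exit tunnel, was read only at 5.58 to 5.68, below the median of the arrays, and differed by 0.01.

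The 6 paralogs had a median SD within a genotype of 0.134, against 0.0412 in the 43 core genes, most of which were brighter. Rps27l, a p53-induced paralog of Rps27, read 12.16, 12.26 and 12.20 in Hopx-null and 12.25, 12.12 and 12.05 in wild-type lungs, a difference of 0.06 (SE 0.09), against -0.12 for Rps27. Rpl22l1, which can replace Rpl22, read 12.37, 12.44 and 12.39 in Hopx-null and 12.29, 12.39 and 12.44 in wild-type lungs. It differed by 0.02 and Rpl22 by -0.05, and the difference between the paralogs was not tested. Rpl39l, mainly a testis gene, read 5.495, 4.71 and 4.93 in Hopx-null and 5.25, 4.99 and 5.33 in wild-type lungs, below the array median, and Rpl3l, mainly a muscle gene, read 3.78 to 4.01 over all lungs, below the lower quartile (4.24 to 4.29). Rps4l differed by -0.08 with a range of 0.747 over the lungs.

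Rpl7l1, a paralog of Rpl7 that acts in the nucleolus, had a difference below 0 in all 3 of its probe sets, and none passed the test. The brightest read 10.03, 9.74 and 9.71 in Hopx-null and 9.76, 10.11 and 10.05 in wild-type lungs, a difference of -0.14 with overlapping groups. The next read 9.37, 9.20 and 9.13 in Hopx-null and 9.75, 9.51 and 9.75 in wild-type lungs, a difference of -0.44 (SE 0.11, limma eBayes, adjusted p = 0.878), and here the groups did not overlap. It was 1 of 2 of the 105 member probe sets with an unadjusted p under 0.05, where 2% of all probe sets had such a p on the lower side. The third differed by -0.10.

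Rps9, a core small subunit protein, held the other, which was singled out after its values were seen. Its brightest probe set (s_at) read 13.12, 13.07 and 13.00 in Hopx-null and 13.10, 13.11 and 13.12 in wild-type lungs, a difference of -0.05. Its x_at probe set read 12.48, 8.08 and 7.99 in Hopx-null and 12.48, 12.59 and 12.93 in wild-type lungs. Hopx-null replicates 2 and 3 thus lay at least 4.40 below every other lung, 21.1-fold, while Hopx-null replicate 1 equalled wild-type replicate 1 to 2 decimals. The third probe set (at) showed no such split, with 6.63, 6.92 and 6.52 in Hopx-null and 6.74, 6.84 and 6.53 in wild-type lungs.

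The difference at the Rps9 x_at probe set was -3.15 (SE 1.15, limma eBayes, adjusted p = 0.878) and did not pass. Without Hopx-null replicate 1 it was -4.63 and passed (limma eBayes with Benjamini-Hochberg, adjusted p = 0.00139), while with each other lung left out the adjusted p was 0.726 to 1.000. That pass left out the only Hopx-null lung without the drop, at a probe set singled out for the drop. It therefore cannot speak to an effect of genotype. The x_at suffix marks probes that can match more than 1 transcript. Its range of 4.94 over the lungs was reached by 31 of 45037 probe sets (0.0688%), and the next widest range among member probe sets was 1.33, in the dim probe set of Rpl35. No probe set of the array had a larger gap between Hopx-null replicates 2 and 3 and the other lungs, and 7 had a gap of at least 2. The other 6 were probe sets of Zfp945, Eme2 and Zfp994 on chromosome 17, 2 of Paip1 on chromosome 13 and 1 of Nxpe4 on chromosome 9, whereas Rps9 lies on chromosome 7. What sets these lungs apart at these probe sets was not tested.

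**Figure D4:**
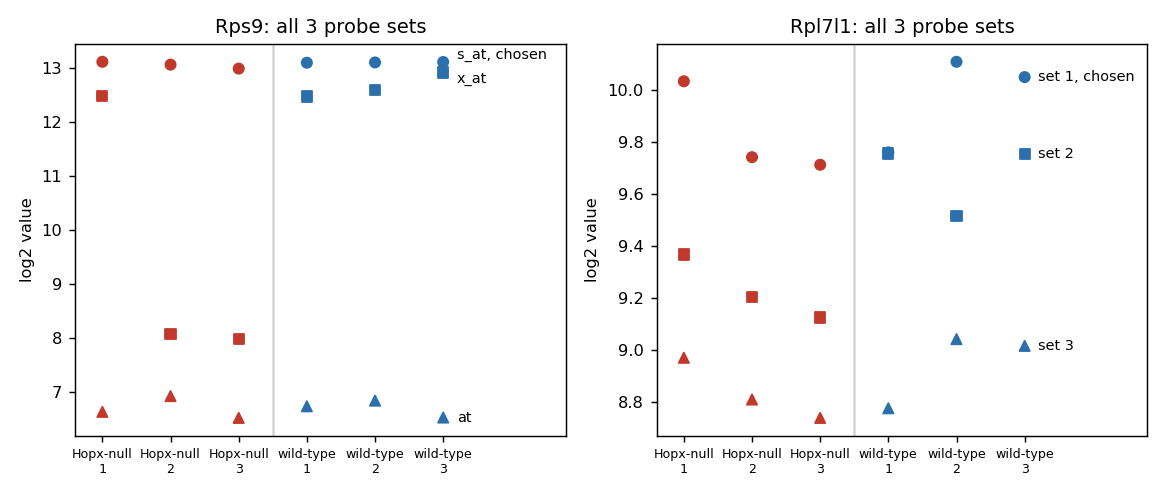
Log2 values of all 3 probe sets of Rps9 (left) and Rpl7l1 (right) in each lung, Hopx-null in red and wild-type in blue; the panels have their own scales. The x_at probe set of Rps9 drops to about 8 in Hopx-null replicates 2 and 3 while the chosen probe set stays near 13, and the Rpl7l1 probe set marked 2 has all Hopx-null values below all wild-type values.

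Several members could be read poorly. Of the 49 chosen probe sets, 13 had the x_at suffix, and 34 genes had at least 1 pseudogene of their name in RefSeq, 121 in all, so signal from near-identical copies cannot be separated. The 9 members not above the upper quartile were Rps27, Rps4l, Rpl14, Rpl12, Rpl39, Rpl39l, Rpl37, Rpl3l and Rps16, and Rps16 at 2.52 to 3.00 and Rpl3l were below the lower quartile, where no fold can be read. The widest ranges over the lungs among chosen probe sets were 0.830 for Rps25, 0.781 for Rpl39l, 0.750 for Rpl14 and 0.747 for Rps4l, none of which followed genotype. Of 24 genes with more than 1 probe set, 12 had all of them on the same side of 0 and 12 did not. Some dim probe sets of bright genes, picked out after their values were seen, had the same 3 lungs highest. The dim at probe set of Rpl35 read 6.82, 7.64 and 7.41 in Hopx-null and 7.45, 6.31 and 6.88 in wild-type lungs. A dim probe set of Rps18 read 7.46, 7.91 and 7.83 in Hopx-null and 7.88, 7.31 and 7.53 in wild-type lungs. In both, Hopx-null replicates 2 and 3 and wild-type replicate 1 were the highest, which is not an order by genotype.

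Other genes of translation or with TOP messages were read beside the members. Of 18 measured genes with TOP messages, most of them translation factors, 13 were lower and 5 higher, with a median of -0.06, and 0 passed (limma eBayes with Benjamini-Hochberg, smallest adjusted p = 0.878). Hnrnpa1, an RNA-binding protein, differed by -0.13, the nucleolar chaperone Npm1 by -0.11 and Nap1l1 by -0.11. These genes, the lowest of the list, are not translation factors. Eif3l, an initiation factor subunit, differed by 0.11 and Eif4a2, a helicase, by 0.04. Hopx-null replicate 3 was the lowest lung in 14 of these 18 genes, as in most members, and without it the list median was -0.0091. Fau, which encodes a small subunit protein fused to a ubiquitin-like one, differed by -0.05.

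Ribosome assembly factors were divided, 23 lower and 17 higher of 40, with a median of -0.0092, which turned to 0.02 with Hopx-null replicate 1 left out and to 0.03 with wild-type replicate 3 left out. Nolc1 and Ebna1bp2, nucleolar assembly factors, differed by -0.24 and -0.14, and Rrs1 and Utp20, of large and small subunit assembly, by 0.13 each. Proteins of the mitochondrial ribosome, which is built from other genes, had 46 of 73 genes higher and a median of 0.03. Their mean level was 9.789 to 9.812 in Hopx-null and 9.768 to 9.787 in wild-type lungs, narrowly without overlap. By median deviation, the measure used above for the members, the groups overlapped. Hopx-null replicate 2 lay at 0.0046 and wild-type replicate 2 at 0.0115. The difference from the cytosolic genes was not tested. Mrps23 read 9.83, 9.88 and 9.95 in Hopx-null and 9.61, 9.64 and 9.66 in wild-type lungs, a difference of 0.25 without overlap (SE 0.08, limma eBayes, adjusted p = 0.878). Mrps15 differed by 0.22, Mrps10 by -0.35 and Mrpl48 by -0.19, and 0 of the 73 passed (limma eBayes, 1 at an unadjusted p under 0.05).

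**Figure D5:**
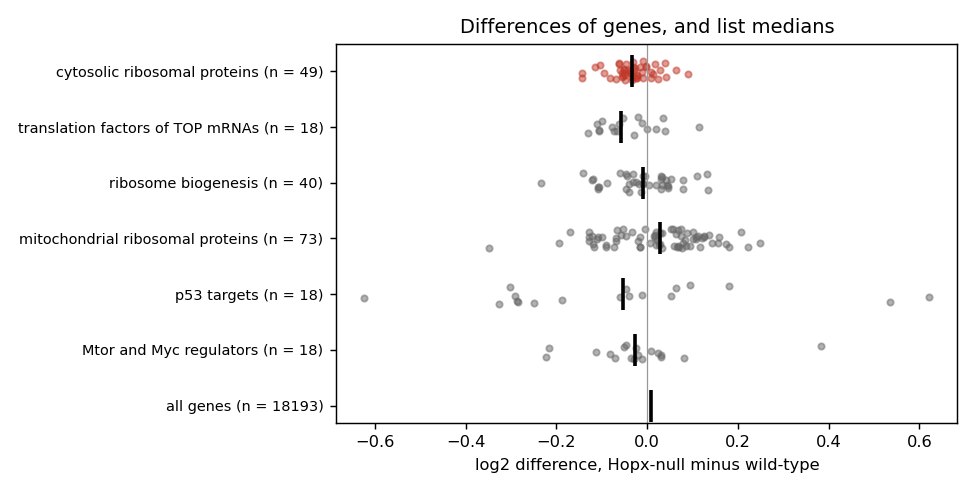
Log2 difference of each gene (points) in the ribosomal protein genes and the other lists, with black bars for the medians, and the median alone for all 18193 genes. The ribosomal protein genes lie between -0.14 and 0.09, and the p53 targets spread from -0.62 to 0.62.

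Targets of p53, the protein that Rpl11 can stabilise by binding Mdm2, had 12 of 18 genes lower with a median of -0.05. Pmaip1, which promotes cell death, and Phlda3 differed by -0.62 and -0.33, and the receptor Tnfrsf10b and the kinase Plk2 by 0.62 and 0.54. Regulators of the Mtor and Myc pathways had 12 of 18 lower with a median of -0.03, which was 0.03 without Hopx-null replicate 2, with Mycl at -0.22, Mlst8 at -0.22, Mycn at 0.38 and Mnt at 0.08. None of these 36 genes passed (limma eBayes; at an unadjusted p under 0.05, Phlda3 was lower and Plk2 higher). Among markers of other cells, the mean of 9 cartilage genes was 5.23 to 6.26 in Hopx-null and 5.10 to 7.72 in wild-type lungs, with 8 of 9 genes lower. That of 8 cardiac muscle genes was 10.2 to 10.6 in Hopx-null and 9.78 to 10.5 in wild-type lungs, with 7 of 8 higher. That of 9 cycling-cell genes was 8.21 to 8.39 in Hopx-null and 7.99 to 8.71 in wild-type lungs, with 7 lower, while the replication genes Mcm2 (0.46) and Mcm5 (0.67) were higher without overlap. Wild-type replicate 3 alone, at 8.71, was the highest lung in 7 of these 9 genes. Wild-type replicates 1 and 2, at 7.99 and 8.11, lay below every Hopx-null lung. The mean of 8 leukocyte genes was 9.97 to 10.1 in Hopx-null and 9.94 to 10.1 in wild-type lungs. In this list 4 genes were higher, by up to 0.28, and 4 lower, among them the complement genes C1qb (-0.29) and C1qc (-0.38). These last 4 named genes had an unadjusted p under 0.05 and did not pass (limma eBayes). The same held for 1 of the cartilage genes, which was lower, and 1 of the cardiac muscle genes, which was higher. The mean of the 6 epithelial genes was 10.9 to 11.0 in Hopx-null and 11.0 to 11.1 in wild-type lungs, with Hopx-null replicate 3 lowest in 4. That of 5 mesenchymal genes was 12.11 to 12.27 in Hopx-null and 12.22 to 12.27 in wild-type lungs, that of 3 endothelial genes 10.70 to 10.82 in Hopx-null and 10.70 to 10.80 in wild-type lungs, and that of 6 erythroid genes 6.33 to 7.48 in Hopx-null and 6.70 to 6.98 in wild-type lungs. These ranges overlapped in each list, and the part of other cells in the members' values was not tested.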

How the data were processed

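The deposited values of 6 arrays, 3 Hopx-null and 3 wild-type lungs, were read as log2 expression values. The submitters' processing notes name RMA and Partek 6.6 but not what each did; base 2 is taken from the scale of the values, and the background option is not given in the sources used here. After 64 control probe sets were left out, 45037 were tested with limma 3.58.1 in R 4.3.3 (lmFit, eBayes, threshold 0.05) without a filter on dim probe sets, and the rows of the members were read from that fit. The script was also tested on simulated data. Of these, 34945 had 1 annotated gene, 932 several and 9160 none. Members and lists were chosen with earlier results of these data known. Members named with values were those with the largest differences in each direction (groups without overlap first), paralogs and their parents, X-linked, stalk and disease genes, and the widest ranges; 7 genes of that rule had no probe set of their own. In each list, the largest differences were named. The labels call the samples biological replicates, and with 3 against 3 an exact two-sided permutation test cannot give a p below 0.1. Array number limits the precision. At most 0.313% of values were identical between a pair of arrays. Alternatives were other scalings, filters, variance models, array weights, a replicate block, other probe sets per gene and each lung left out in turn.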

Additional observations from a re-analysis of the deposited data

How the results depend on the processing

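With 16 alternatives, 0 ribosomal protein genes passed limma (eBayes, Benjamini-Hochberg) in any, read at 1 value per gene. The Rps9 x_at probe set, not the one standing for Rps9, passed without Hopx-null replicate 1 (-4.63). That replicate was the only Hopx-null lung without the drop at this probe set, so the pass cannot speak to genotype. The number of members with a difference above 0, 10 as reported, was 18 after repeated quantile normalization, 6 with arrays centred on their medians and 16 with the dimmest probe set of each gene. The number lower at an unadjusted p under 0.05, 0 as reported, was 1 with trend and robust options (Rps10), 1 with the mean of all probe sets of a gene (Rps9) and 0 to 1 with a lung left out (Rpl39l without Hopx-null replicate 1). The median over the members stayed below 0, from -0.0464 to -0.0154 with a lung left out. The large subunit median was -0.0096 after repeated quantile normalization, against -0.03 as reported, and the small subunit median ranged from -0.0549 to -0.0154 with a lung left out. The p53 list median was -0.22 above the array median and -0.14 with gene means. The mitochondrial list median was 0.0113 with centred arrays and 0.01875 to 0.0444 with a lung left out, that of the Mtor and Myc list -0.0374 to 0.0251, and that of the assembly factors -0.0338 to 0.0283. Over the whole array, 2 probe sets passed, both of Hopx, 1 with the replicate block, and 1 to 23 with a lung left out (12 without Hopx-null replicate 1, 23 without wild-type replicate 1). Same-numbered lungs deviated together weakly or not at all (correlations -0.096, -0.121 and 0.183). The labels state no pairing, and whether same-numbered lungs shared a litter or a batch is not known. The block changed no call among the members. Among the 32 named genes, the difference changed sign without a call in 45 cases, a case being 1 gene under 1 alternative. In 472 cases it was counted as the same and in 1 as stronger. The cause of the changes was not tested.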
